A study of Rattus norvegicus with 6 samples.

Results

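The 10 genes described here, which shape chromatin in the developing heart, were compared between rat heart primordia before and after the first heartbeat. They are Smarca4, Arid1a, Dpf3, Smarcd1, Smarcd2 and Smarcd3 of the SWI/SNF (BAF) complex, the histone methyltransferase Smyd1, the homeodomain-only protein Hopx, and the class IIa histone deacetylases Hdac5 and Hdac9. Members were all probes, apart from control probes, whose gene name in the scanner files equals 1 of these symbols, upper and lower case taken as equal. This found 10 probes for 9 of the 10 genes, among 19339 genes with a symbol on the array. No probe carries the name Hdac9.

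The samples were heart primordia of Wistar rat embryos (spelled Wister in the labels) on embryonic day 10 (E10), with 3 samples in each of the pre- and post-heartbeat groups, and the labels name no treatment. In the methods of the study, the pre-heartbeat primordium has a flat centre and the post-heartbeat primordium a raised centre, with slightly more somites in the embryo. The paper states as a limitation that the groups were separated only on the basis of earlier ex vivo studies. Beating is thus inferred from shape and stage, and these cannot be told apart here. Below, before and after the first heartbeat stand for the groups so defined. RNA of each sample was hybridised to 1 one-colour Agilent array, and how many primordia made up a sample is not given for the arrays in the sources used here. The arrays lay on 2 slides, and each slide held both groups. Slide 1 held pre-heartbeat array 1 and post-heartbeat arrays 1 and 2, and slide 2 held pre-heartbeat arrays 2 and 3 and post-heartbeat array 3. Signals are given as log2 intensity less the 75th percentile of the array, so that 0 is the signal at that percentile, and a change is the mean of the post-heartbeat group minus that of the pre-heartbeat group on this scale. Values of single arrays are given in the order of arrays 1 to 3 of each group.

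BAF complexes use the ATPase Smarca4 (Brg1) or its relative Smarca2 to move nucleosomes, and exchangeable subunits direct them to tissue-specific genes. Among these, Smarcd3 (Baf60c) is known for its role in cardiac progenitors, where it acts together with Gata4, Tbx5 and Nkx2-5. Smyd1 (Bop) is a methyltransferase restricted to striated muscle, and Hopx restrains the factor SRF together with deacetylases. Class IIa deacetylases such as Hdac5 and Hdac9 hold back MEF2 factors and leave the nucleus when calcium-dependent kinases phosphorylate them.

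The measurement rests on 1 or 2 probes of 60 bases per gene. The probes of Smarcd3, Smyd1 and Smarcd1 are shown as examples among the genes whose groups did not overlap, and Hopx, the other such gene, is shown by its promoter. The coordinates are those of the array annotation on rn4, at chr4:5959048-5959107 on the plus strand for Smarcd3, chr4:104424247-104424306 on the minus strand for Smyd1 and chr7:138447574-138447633 on the plus strand for Smarcd1.
Smarcd3 probe: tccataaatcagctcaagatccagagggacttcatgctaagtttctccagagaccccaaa
Smyd1 probe: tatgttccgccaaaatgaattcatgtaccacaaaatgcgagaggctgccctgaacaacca
Smarcd1 probe: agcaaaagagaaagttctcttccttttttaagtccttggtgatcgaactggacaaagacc
The probe of Hopx lies at chr14:33377654-33377713 on the plus strand, that of Arid1a at chr5:151398467-151398526 on the plus strand, that of Dpf3 at chr6:107243367-107243426 on the minus strand and that of Smarcd2 at chr10:95657030-95657089 on the minus strand. The Hdac5 probe maps to chr10:91267403-91267871 on the minus strand, which spans 469 bases for 60 bases of sequence, so that it crosses an intron. Smarca4 has 2 probes on the plus strand, at chr8:20812098-20812157 and chr8:20789267-20789326, and the first of them, with the higher mean signal, stands for the gene. Each probe matches a transcript and is therefore exonic in the array annotation, and whether it lies in coding sequence or a UTR was not assigned on rn4.

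The promoters of Smyd1, Hopx, Hdac5 and Smarcd3 are shown because the signals of these genes were higher on every post-heartbeat array than on every pre-heartbeat array of the same slide. Each runs from 250 bases before to 50 bases after an annotated start and is taken from RefSeq on the GRCr8 build. The motifs searched on both strands were the CArG box and the MEF2 site, by name, the GATA site AGATAA, the NK2 site AAGTG, the T-box site AGGTGT and the E-box CANNTG. Capitals mark every match, and a T-box or NK2 match may overlap an E-box. Smyd1 is at chr4:104811223-104811522 on the minus strand, Hopx at chr14:31429163-31429462 on the plus strand, Hdac5 at chr10:87688005-87688304 on the minus strand, and the 2 starts of Smarcd3 at chr4:11440950-11441249 and chr4:11463026-11463325 on the plus strand.
Smyd1: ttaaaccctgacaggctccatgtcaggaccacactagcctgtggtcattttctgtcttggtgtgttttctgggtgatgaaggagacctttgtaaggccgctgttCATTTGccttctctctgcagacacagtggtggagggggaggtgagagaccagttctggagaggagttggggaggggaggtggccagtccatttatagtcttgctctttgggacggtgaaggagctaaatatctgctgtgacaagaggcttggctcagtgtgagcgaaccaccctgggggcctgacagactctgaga
Hopx: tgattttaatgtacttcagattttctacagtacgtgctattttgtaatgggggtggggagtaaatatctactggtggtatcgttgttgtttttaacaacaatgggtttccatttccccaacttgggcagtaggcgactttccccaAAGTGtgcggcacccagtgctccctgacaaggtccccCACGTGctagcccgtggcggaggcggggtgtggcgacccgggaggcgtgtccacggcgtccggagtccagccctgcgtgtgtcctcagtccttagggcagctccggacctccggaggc
Hdac5: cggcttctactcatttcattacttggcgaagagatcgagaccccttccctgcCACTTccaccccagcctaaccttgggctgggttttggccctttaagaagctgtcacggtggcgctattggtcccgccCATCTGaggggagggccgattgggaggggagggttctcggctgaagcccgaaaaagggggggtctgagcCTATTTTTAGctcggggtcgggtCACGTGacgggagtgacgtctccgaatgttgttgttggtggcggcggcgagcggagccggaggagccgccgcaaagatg
Smarcd3, start 1: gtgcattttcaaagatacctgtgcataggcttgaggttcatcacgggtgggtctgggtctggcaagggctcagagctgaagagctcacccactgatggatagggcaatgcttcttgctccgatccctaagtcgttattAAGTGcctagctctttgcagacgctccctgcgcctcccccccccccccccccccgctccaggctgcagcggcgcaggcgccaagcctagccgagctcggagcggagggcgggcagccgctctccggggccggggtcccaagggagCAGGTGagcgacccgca
Smarcd3, start 2: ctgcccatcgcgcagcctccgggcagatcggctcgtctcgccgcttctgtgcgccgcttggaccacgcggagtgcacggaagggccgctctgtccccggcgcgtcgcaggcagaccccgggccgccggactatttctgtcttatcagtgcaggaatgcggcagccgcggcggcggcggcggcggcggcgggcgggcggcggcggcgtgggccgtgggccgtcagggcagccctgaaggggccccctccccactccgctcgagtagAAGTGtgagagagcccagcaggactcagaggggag
Hdac5 was the one member with a match to the MEF2 site, at position -52 from its start, and such a match is held by 3.29% of the 33469 promoters in the reference table. Matches to the NK2 site, at position -105 in Hopx, -198 in Hdac5 and -112 and 15 at the starts of Smarcd3, are held by 46.2% of all promoters. An E-box, held by 72.1% of all promoters, was found at position -146 in Smyd1, -68 in Hopx and 33 at the first start of Smarcd3, and 2 were found in Hdac5. Windows of other members, not shown, held matches too. The NK2 site was found in Smarcd1, Smarca4, Dpf3 and Hdac9, and the E-box in Smarcd1, Dpf3 and Hdac9. No window of a member held the letters of the CArG box (1.64% of all promoters), the GATA site (11.6%) or the T-box site (13.6%). These matches describe the letters of the windows and do not show binding.

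Smarcd3, the cardiac Baf60 subunit, had a higher signal on all 3 post-heartbeat arrays than on any pre-heartbeat array. Its signal was 0.40, 0.19 and 0.41 on pre-heartbeat arrays 1 to 3 and 1.15, 1.07 and 0.70 on post-heartbeat arrays 1 to 3. The groups did not overlap, and the lowest post-heartbeat array was on slide 2. The change was 0.64 ± 0.17 (SE), or 1.56 fold, with a 95% interval from 0.24 to 1.04. It was 0.71 within slide 1 and 0.40 within slide 2. The adjusted p of limma was 0.31, and with the slide as a block the change was 0.55 with an adjusted p of 0.15. Over all other settings the lowest adjusted p was 0.069.

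The related subunits did not have higher signals on all post-heartbeat arrays, and their difference from Smarcd3 is tested below. Smarcd1 (Baf60a) had signals of -4.55, -4.58 and -4.21 before and -4.93, -4.96 and -4.70 after the first heartbeat. Its signal was thus lower on every post-heartbeat array, although it was far below the 75th percentile and came from a probe with a single spot on each array. The change was -0.42 ± 0.16 (SE), or 1.34 fold lower, with a 95% interval from -0.81 to -0.03 and a limma adjusted p of 0.66. It was -0.40 within slide 1 and -0.31 within slide 2. With normexp background correction, which affects dim probes most, the change was -0.21. Smarcd2 (Baf60b), a subunit known from blood cells, had signals of 1.82, 0.64 and 1.36 before and 1.58, 1.36 and 1.05 after the first heartbeat. These groups overlapped, with a change of 0.06 ± 0.31 (SE) and a 95% interval from -0.67 to 0.78, which includes changes as large as that of Smarcd3.

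The 3 Baf60 genes were also set against each other within each array, where any shift common to an array drops out. The SE of each within-array difference between genes comes from an ordinary least squares fit to the 6 arrays, not from limma. The difference between Smarcd3 and Smarcd1 changed by 1.06 ± 0.24 (SE), and relative to the pre-heartbeat mean it was 1.30, 1.25 and 0.62 on the post-heartbeat arrays and 0.17, -0.01 and -0.16 on the pre-heartbeat arrays. The groups did not overlap in this difference, which was 0.90 with slide in the fit. It was not computed with normexp background correction, under which the change of the dim Smarcd1 was -0.21. The difference between Smarcd3 and Smarcd2 changed by 0.58 ± 0.28 (SE), and between Smarcd1 and Smarcd2 by -0.48 ± 0.41 (SE). By two-sided exact permutation test, the p was 0.1 for Smarcd3 against Smarcd1, 0.1 for Smarcd3 against Smarcd2 and 0.3 for Smarcd1 against Smarcd2, and 0.15, 0.15 and 0.36 after Benjamini-Hochberg adjustment over the 6 pairs compared. With 3 arrays against 3, this test cannot go below 0.1.

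**Figure D1:**
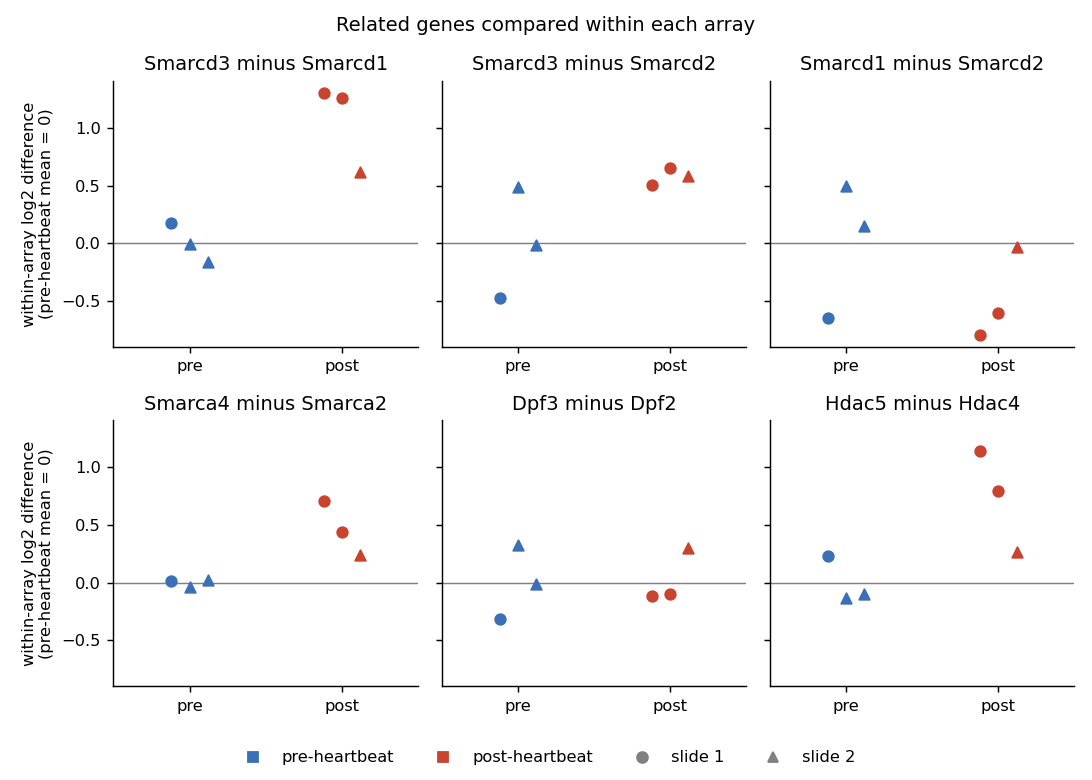
Difference in log2 signal between related genes on each array, with the mean of the pre-heartbeat group set to 0 (vertical axis), for 6 pairs and 3 arrays per group, with circles for slide 1 and triangles for slide 2. The 3 post-heartbeat points of Smarcd3 minus Smarcd1 lie between 0.62 and 1.30, all above the pre-heartbeat points, whereas the groups overlap for Smarcd1 minus Smarcd2 and Dpf3 minus Dpf2.

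Smarca4, the ATPase, had a smaller change than Smarcd3, but a difference between them was not tested. Its signals were 3.78, 3.04 and 3.44 before and 3.78, 3.52 and 3.32 after the first heartbeat. The change was 0.12 ± 0.23 (SE) with a 95% interval from -0.41 to 0.66, which includes the change of Smarcd3. The second probe of Smarca4 changed by 0.28 ± 0.26 (SE), and both probes had groups that overlapped. Against Smarca2, the alternative ATPase, the within-array difference of Smarca4 changed by 0.46 ± 0.14 (SE) and was higher on all 3 post-heartbeat arrays. These were at 0.71, 0.44 and 0.24 from the pre-heartbeat mean, while the pre-heartbeat arrays lay between -0.03 and 0.02. The exact permutation p was 0.1, and 0.15 after adjustment over the pairs. Smarca2 itself changed by -0.34 ± 0.19 (SE) with overlapping groups, and Smarca4 changed sign with the slide as a block, at -0.02.

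Arid1a (Baf250a), which binds DNA within the complex, had signals from -0.94 to -0.22 before and from -0.81 to -0.25 after the first heartbeat, with a change of -0.09 ± 0.25 (SE) and a 95% interval from -0.68 to 0.49. Dpf3 (Baf45c), a reader of histone marks known from heart and skeletal muscle, had signals from -2.40 to -1.68 and from -2.16 to -1.88, with a change of 0.01 ± 0.21 (SE) and an interval from -0.49 to 0.51. The groups of both genes overlapped. The upper ends of their intervals lay below the change of Smarcd3 but within its own interval, from 0.24 to 1.04. A difference of either gene from Smarcd3 was not tested. The difference between Dpf3 and its widely expressed relative Dpf2 changed by 0.03 ± 0.23 (SE), with an exact permutation p of 1.0. Arid1a could not be set against Arid1b, for which no probe was found by name.

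Smyd1, the muscle methyltransferase, had signals of 0.77, 1.33 and 1.07 before and 1.59, 1.73 and 1.63 after the first heartbeat. The 3 post-heartbeat arrays lay close together (SD 0.07) and above all pre-heartbeat arrays (SD 0.28). The change was 0.59 ± 0.18 (SE), or 1.51 fold, with a 95% interval from 0.17 to 1.01 and a limma adjusted p of 0.39. Within slide 1 it was 0.89 and within slide 2 it was 0.43. A fit with the slide block gave 0.66 and an adjusted p of 0.13. When normexp background correction was used together with the slide block, the change was 0.65 and the adjusted p 0.019, the one setting tried in which any member passed 0.05. Over all other settings the lowest adjusted p of Smyd1 was 0.13.

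Hopx had signals of -4.17, -3.90 and -4.05 before and -3.70, -3.66 and -3.35 after the first heartbeat. It was dim on every array but well above background on all 6, and the groups did not overlap. The change was 0.47 ± 0.16 (SE), or 1.39 fold, with a 95% interval from 0.10 to 0.85 and a limma adjusted p of 0.50. It was 0.50 within slide 1 and 0.62 within slide 2. A fit with the slide block gave 0.56 and an adjusted p of 0.11. With normexp background correction the change was 0.24.

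Hdac5 had the largest mean change of the members in the fit without a block, although not with the slide as a block, and the widest spread within the post-heartbeat group. Its signal was -1.20, -1.87 and -1.47 before and -0.36, -0.77 and -1.34 after the first heartbeat. Post-heartbeat array 3 was lower than pre-heartbeat array 1, which lay on the other slide, so that the groups overlapped. Within slide 1 both post-heartbeat arrays were above the pre-heartbeat array, by 0.63 on average, and within slide 2 the post-heartbeat array was above both pre-heartbeat arrays, by 0.33. The change was 0.69 ± 0.29 (SE), or 1.61 fold, with a 95% interval from 0.01 to 1.37. A fit with the slide block gave 0.48. The limma adjusted p was 0.71 without and 0.42 with the block. Without post-heartbeat array 1 the change was 0.45. Against Hdac4, another class IIa deacetylase, the within-array difference of Hdac5 changed by 0.73 ± 0.28 (SE), with an exact permutation p of 0.1, and 0.15 after adjustment over the pairs. The arrays were just separated in this difference, at 0.27 on the lowest post-heartbeat array and 0.23 on the highest pre-heartbeat array.

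Hdac9 has no probe under its own name. A probe named LOC687001 carries a transcript that RefSeq now gives to Hdac9, at chr6:52714157-52714216 on the minus strand of rn4. It lies outside the rule for members and was found after the names on the array had been examined. Its signal was between -6.75 and -5.21, and it was well above background on 1 of the 6 arrays, so that it was not tested and no change is given. Hdac5 could therefore not be set against Hdac9.

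**Figure D2:**
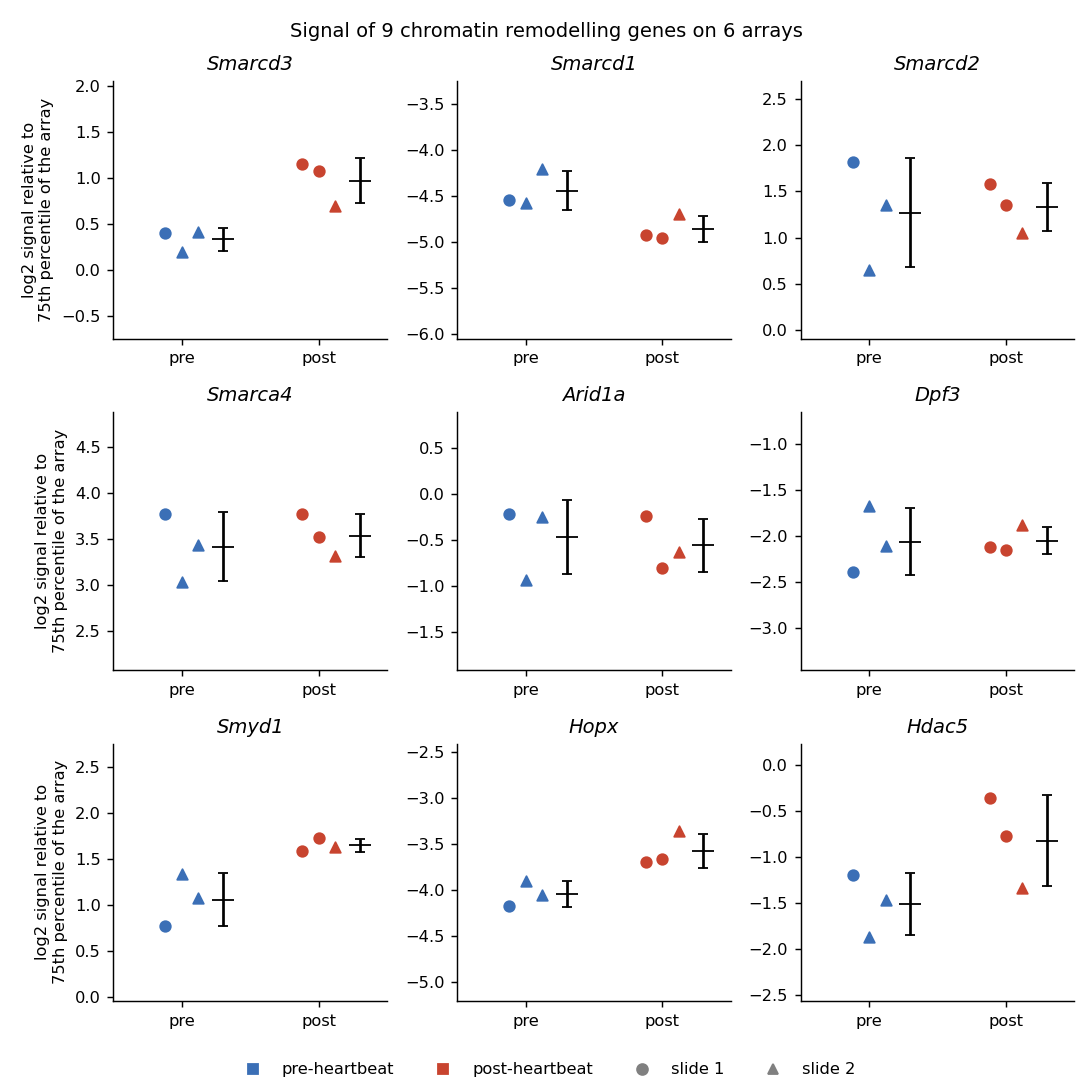
Signal of each of the 9 genes on each array, as log2 signal less the 75th percentile (vertical axis, which spans the same range in every panel), with 3 arrays per group, circles for slide 1 and triangles for slide 2, and mean ± SD in black. The groups are apart for Smarcd3, Smyd1 and Hopx, where the post-heartbeat arrays are higher, and for Smarcd1, where they are lower.

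As a whole, the 9 measured members were all well above background on all 6 arrays. Of these, 7 had a positive and 2 a negative change, with a median of 0.12, compared with a median of -0.03 over all 19299 probes tested, of which 44.7% had a positive change. With the slide as a block, 5 were positive and 4 negative. Not one passed an adjusted p of 0.05 in limma, where 0.14% of all probes did, nor with the slide as a block, where 1.62% did. At an unadjusted p under 0.05 in limma, 5 of 9 members were past the threshold (Smarcd3, Smyd1, Hopx, Hdac5 and Smarcd1), compared with 7.01% of all probes. With the slide as a block 5 of 9 were past it, compared with 9.66% of all probes. The selection of the methods, a change of at least 1.5 fold with an unadjusted p under 0.05 in the pooled comparison of 2 groups, held Smarcd3 and Smyd1 as higher, beside 1.89% of all probes. With the slide as a block it held Smyd1 alone, and without post-heartbeat array 1 or 2 it held 0 members. Hopx, at 1.39 fold, missed the fold threshold, and Hdac5, at 1.61 fold, missed that of p.

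Groups that did not overlap, with the post-heartbeat arrays higher, were found in 3 of 9 members and in 5.38% of all probes. In 1 of 9 members, Smarcd1, the post-heartbeat arrays were lower, compared with 6.14% of all probes. When arrays were compared only within their slide, 4 members (Smarcd3, Smyd1, Hopx and Hdac5) were higher on every post-heartbeat array of both slides, compared with 12.2% of all probes. Smarcd1 alone was lower, compared with 13.3%. By two-sided exact permutation test, Smarcd3, Smyd1, Hopx and Smarcd1 each had a p of 0.1, the smallest that 3 against 3 arrays allow, and the other members had a p between 0.2 and 1.0. Since the genes were brought together with earlier results of these data known, these counts describe the members and are not a test of the group.

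**Figure D3:**
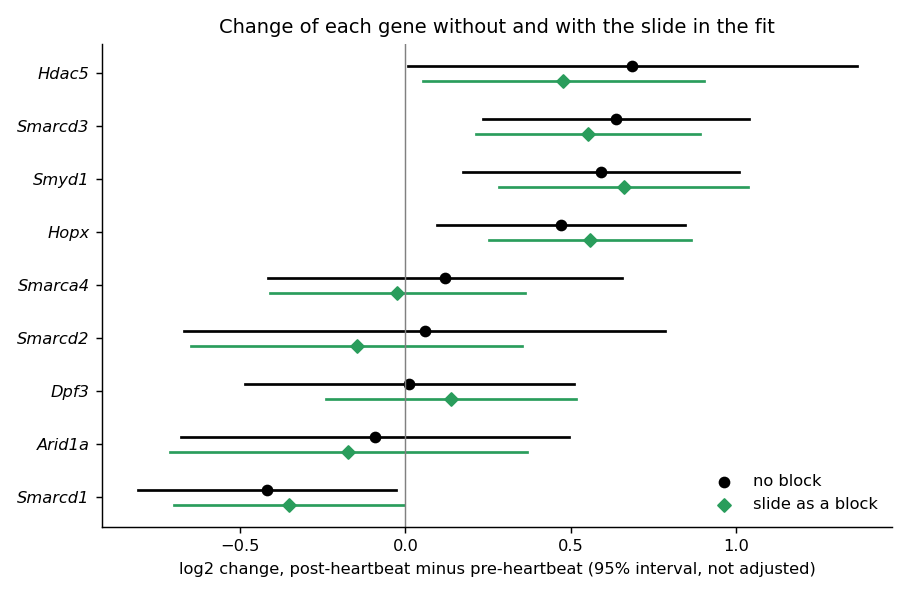
Change of each gene on the log2 scale (horizontal axis) with its 95% interval, not adjusted for the number of genes, from limma without a block (black circles) and with the slide as a block (green diamonds), for 3 arrays per group. In both fits the intervals of Hdac5, Smarcd3, Smyd1, Hopx and Smarcd1 exclude 0, and those of the other 4 genes include it.

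Among all BAF subunits, 24 of 27 on the array were tested, 11 with a positive and 13 with a negative change, and the median was -0.04, close to -0.02 over all 12707 genes tested. None passed an adjusted p of 0.05 in limma with or without the slide block. Smarcd3 and Smarcd1 were the 2 with an unadjusted p under 0.05, and 2 of 24 is near the 7.01% of all probes. Ss18l1 (Crest) changed by -0.47 ± 0.21 (SE) with an adjusted p of 0.78, by -0.13 with normexp background correction and by -0.27 without post-heartbeat array 2. It was well above background on 5 of the 6 arrays and entered the tests through 1 group only. Its lowest signal, -6.33, was on post-heartbeat array 2, and its change is given as a value only. Of the 11 histone deacetylases, 9 were tested and none was called by limma. Of these, 1, Hdac5, had an unadjusted p under 0.05, and 1 of 9 is likewise near that share. Their median was 0.14, and 0.0057 with the slide as a block. Hdac8, a class I enzyme, changed by -0.43 ± 0.27 (SE), and by -0.22 with the slide as a block. Hdac2 and Hdac9 were not well above background on all 3 arrays of either group.

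The partners of the class IIa deacetylases were 17 tested genes, namely kinases, phosphatase subunits, MEF2 factors, Ankra2 and Rfxank. They had a median change of 0.02 and no call by limma, with 0 at an unadjusted p under 0.05. Mef2d changed by 0.73 ± 0.33 (SE) with overlapping groups and an adjusted p of 0.79, and by 0.42 without pre-heartbeat array 2. Its signal was -0.88, -1.91 and -1.12 before and -0.20, -0.45 and -1.09 after the first heartbeat, so that post-heartbeat array 3 stood within the range of the pre-heartbeat group, as it did for Hdac5. Camk1g, a calcium-dependent kinase, changed by 0.32 ± 0.15 (SE) with an adjusted p of 0.77.

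In the list of SMYD methyltransferases and their partners, Unc45b, the myosin chaperone that works with Smyd1 in muscle, was the one gene called, with the slide in the fit. Its signal was 3.004, 3.51 and 3.49 before and 4.03, 4.18 and 4.36 after the first heartbeat. The change was 0.86 ± 0.19 (SE) with a limma adjusted p of 0.20, and a fit with the slide block gave 0.98 with an adjusted p of 0.020. The other SMYD genes, Smyd2, Smyd3, Smyd4 and Smyd5, changed by between -0.09 and 0.13, and all 10 genes of the list had a median of -0.02.

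The 14 cardiac transcription factors known to act with the members had a median change of 0.28, with 12 positive and 2 negative changes, and none was called. The 2 negative ones, also named after their values were seen, were Tbx20 at -0.45 ± 0.49 (SE) and Isl1 at -0.43 ± 0.22 (SE). Both had overlapping groups. Nkx2-5 changed by 0.67 ± 0.40 (SE) and Gata4 by 0.62 ± 0.30 (SE), both with overlapping groups and with adjusted p of 0.87 and 0.81. The change of Nkx2-5 was 0.35 with the slide as a block, 0.38 without post-heartbeat array 1 and 1.11 without post-heartbeat array 3. That of Gata4 was 0.41 without pre-heartbeat array 2. Tbx5, named after its values were seen, was the one factor of the list whose groups did not overlap. Its change was 0.45 ± 0.17 (SE) with an adjusted p of 0.63, and it was the 1 gene of the list with an unadjusted p under 0.05 in limma. Of all probes, 7.01% were past that threshold. Groups did not overlap in 5.38% of all probes with the post-heartbeat arrays higher and in 6.14% with them lower. A count of 1 among 14 genes is near these shares.

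The genes whose 6 signals, centred on their mean, came closest to those of a member were taken from 12705 other genes, with the root mean square distance in log2 units as the measure of likeness. For Smyd1 these were Csrp1, a LIM domain protein (0.045), Pacc1, a chloride channel (0.054), and Tnnc1, the slow and cardiac troponin C (0.055). For Hopx they were Bves, a membrane protein of the heart (0.046), Podnl1 (0.050) and Ppp2r3a, a phosphatase subunit (0.058). For Smarcd3 they were Plcd3, a phospholipase (0.054), Alkal2 (0.064) and Krt14, a keratin (0.075). The distance of the member to its own mean was 0.34 for Smyd1, 0.27 for Hopx and 0.36 for Smarcd3, and 20, 21 and 12 genes lay within 0.1 of them. The points are 6 arrays that share 2 slides, and none of these 9 genes had an adjusted p under 0.05 in limma.

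Genes of the contractile apparatus were higher as well. All 18 tested contractile genes had a positive change, with a median of 0.81, and 2 of them, Myl2 and Tnni3, were called higher by limma, and 12 with the slide as a block. Their summed signal, in multiples of the 75th percentile, ranged from 435 to 733 before and from 821 to 979 after the first heartbeat. Myl2, the ventricular myosin light chain, rose by 3.46 ± 0.18 (SE) with an adjusted p of 0.0045, and Tnni3, the cardiac troponin I, by 1.39 ± 0.16 (SE) with an adjusted p of 0.042. The call of Tnni3 was lost when any 1 of the 6 arrays was left out (adjusted p 0.10 to 0.28), and that of Myl2 without pre-heartbeat array 3 (0.057) or post-heartbeat array 1 (0.065) or 2 (0.055). In bulk tissue, fewer cells of a type and less RNA per cell cannot be told apart, and the same holds for more cells and more RNA.

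Markers of other cells that a dissected primordium could hold were read as well. Counts at an unadjusted p under 0.05 stand beside 7.01% of all probes in limma without a block. The 11 endothelial markers tested, of 11 on the array, had a summed signal of 19.5 to 19.9 before and 14.5 to 15.6 after the first heartbeat, with a median change of -0.12, which was -0.03 with the slide as a block, and no call by limma (2 at an unadjusted p under 0.05). Most of this sum was the signal of Kdr, which changed by -0.55, and without Kdr the sums overlapped, at 5.28 to 6.45 before and 5.38 to 5.83 after. Tie1 changed by 0.50, and by 0.33 without post-heartbeat array 1. Of 9 erythroid markers on the array 6 were tested, with 4 positive and 2 negative changes and a median of 0.88. Their summed signal was 0.822 to 1.83 before and 2.11 to 2.37 after. Without Hbb, the brightest, the sums overlapped, at 0.291 to 0.608 before and 0.571 to 0.647 after. There was 1 call by limma, Epor, with the slide as a block (adjusted p 0.040, and 0.12 without it). At an unadjusted p under 0.05 in limma without a block there were 3. Hbe1, Gata1 and Slc4a1 were not well above background on all 3 arrays of either group. Definitive endoderm markers (8 of 10 tested, without Sox17 and Shh) had a summed signal of 10.2 to 11.5 before and 8.15 to 9.78 after and no call (2 at an unadjusted p under 0.05), with Cdh1 at -0.47 and Epcam at -0.42. Yolk sac endoderm markers (10 of 10 tested) were at 70.7 to 73.7 and 49.8 to 69.0 with no call (1 at an unadjusted p under 0.05). Of these, 3 had a positive and 7 a negative change, with Ttr at -0.58 and Apoa4 at -0.61, the latter at 0.145 without post-heartbeat array 3. Without Ttr, the brightest, the sums overlapped, at 26.7 to 41.4 before and 25.7 to 39.8 after.

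Of 8 neural ectoderm markers on the array 5 were tested, without Pax6, Zic1 and Six3, with 3 positive and 2 negative changes and a median of 0.13, which was -0.17 with the slide as a block. Their summed signal was 6.72 to 7.94 before and 3.004 to 3.71 after, and without Otx2, the brightest, it overlapped, at 0.78 to 1.86 before and 0.96 to 1.58 after. Otx2 was called lower, at -1.56 with an adjusted p of 0.020, which was 0.063 to 0.22 when 1 array was left out. Of 10 paraxial mesoderm markers 5 were tested, without Meox1, Meox2, Msgn1, Mesp2 and Ripply2. The summed signal of the 5 was 21.8 to 24.4 before and 25.3 to 27.0 after, with no call (0 at an unadjusted p under 0.05). Most of this sum was the signal of Tcf15 and Pax3, which changed by 0.19 and 0.12. Without Tcf15, the brightest, the sum was 8.77 to 9.31 before and 9.76 to 10.3 after. Pax1 and Tbx6, with lower signals and overlapping groups, changed by 1.19 and 0.58. Without pre-heartbeat array 2 these changes were 0.45 and 0.21, and without pre-heartbeat array 1 that of Pax1 was 1.86. With normexp background correction Tbx6 was at 0.10. It was well above background on 5 of the 6 arrays and entered the tests through 1 group only. Its lowest signal, -6.82, was on pre-heartbeat array 2. The part of these cells in the changes of Smarcd3, Smyd1, Hopx, Hdac5 and Smarcd1 was not tested.

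**Figure D4:**
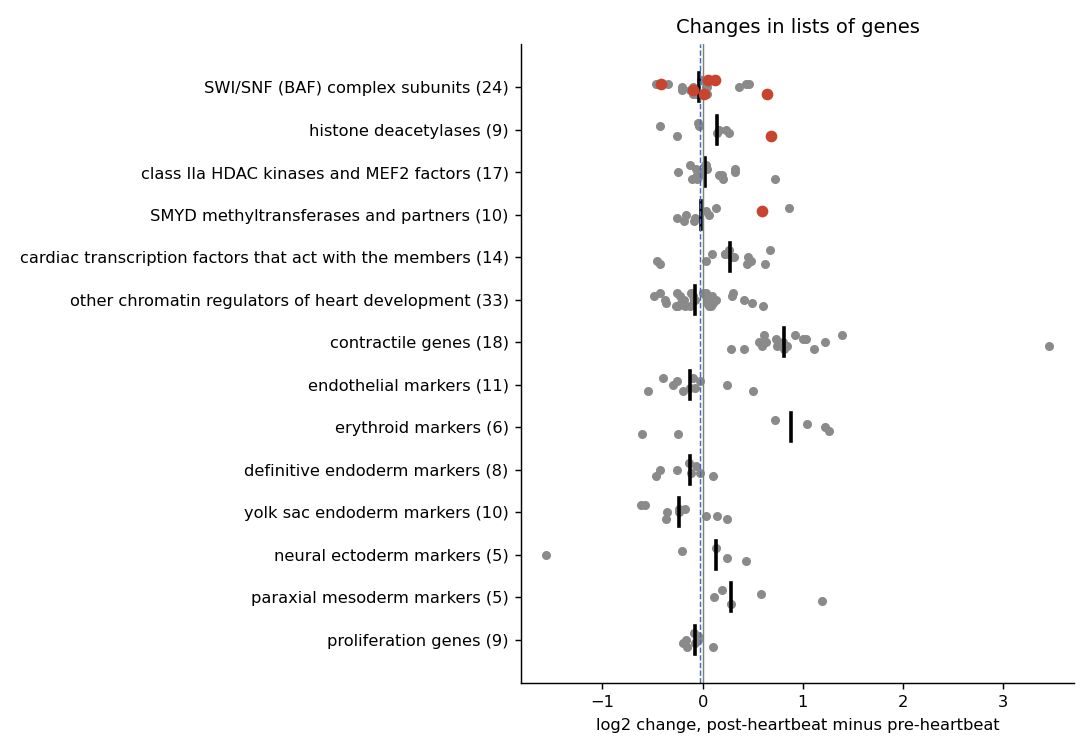
Change of each tested gene on the log2 scale (horizontal axis) by list, with the number of tested genes in brackets, members in red, other genes in grey, the median of a list as a black bar and the median of all tested genes as a dashed line, from 3 arrays per group. Smarcd3, Hdac5 and Smyd1 lie to the right of most genes of their lists, and all contractile genes lie to the right of 0.

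**Figure D5:**
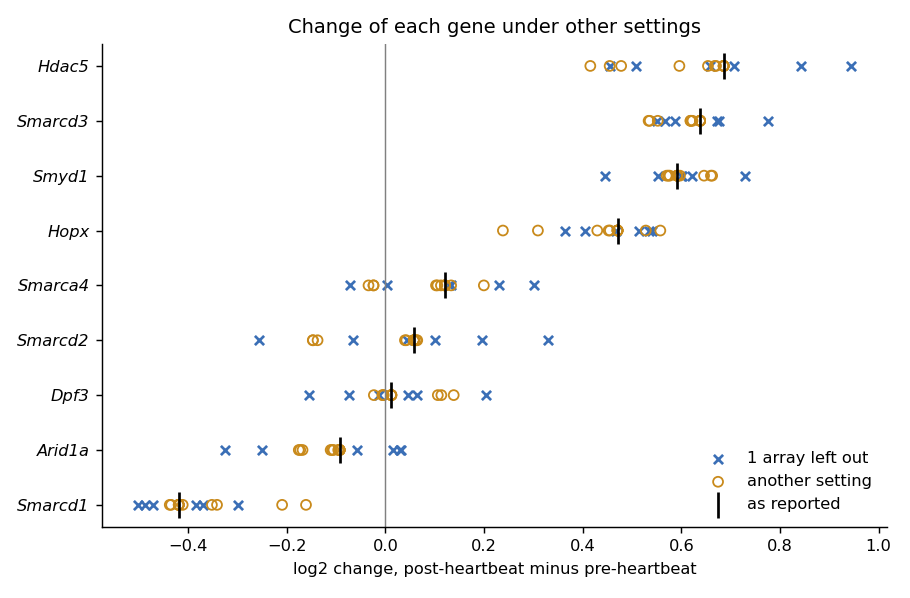
Change of each gene on the log2 scale (horizontal axis) as reported (black bar), under each other setting (circles) and with 1 of the 6 arrays left out (crosses). Hdac5, Smarcd3, Smyd1 and Hopx stay above 0 and Smarcd1 below 0 in every case shown, while Smarca4, Smarcd2, Dpf3 and Arid1a fall on both sides of 0.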

How the data were processed

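Heart primordia of the pre- and post-heartbeat groups were measured on 6 one-colour arrays, 3 per group, and groups follow the sample labels. The authors deposited, for each spot, the processed signal of Agilent Feature Extraction 10.7.3.1, an intensity with the background subtracted and no normalization between arrays. The authors also deposited ratios, shifted to the 75th percentile and divided by a baseline per probe, which served as an alternative. Control spots were left out. The 75th percentile of each array, between 1146 and 1702 intensity units, was subtracted on the log2 scale, outlier spots were dropped and spots of a probe were averaged. No spot was saturated (0 on every array). A probe counted as well above background where at least 0.5 of its spots were. Testing was limited to the 19299 of 30367 probes that were so on every array of 1 or both groups. Probe names were updated through the transcript of the array annotation where RefSeq (GRCr8) held it.

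Groups were compared with limma 3.58.1 in R 4.3.3, with tables read by version 1.17.8 of data.table. Adjustment over all tested probes followed Benjamini and Hochberg at a threshold of 0.05. The samples are described as biological replicates. A gene stands as its brightest tested probe. The pooled comparison of 2 groups, the selection of the methods, used an unadjusted p. Exact permutation tests used SciPy 1.17.1, in Python 3.11.15 with pandas 2.3.3. The slide, read from the array barcode, was entered as a block because each slide held both groups, and 3148 tested probes differed between slides at an adjusted p under 0.05. The limma fit without a block was run on simulated data with independent probes and no slide effect. That check does not cover the fit with the slide as a block or the permutation tests. The number of arrays limits the precision.

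Alternatives were normexp background correction (offset 50), quantile normalization, a percentile taken only over probes detected on all 6 arrays, no filter, a filter requiring all 6 arrays, the ratios of the authors, the slide or replicate number as a block, an intensity trend, the mean of a gene's probes, the limma p in the selection and omission of single arrays. The slide block together with normexp, with quantile normalization or with 1 array left out, and the comparison within slides, were added once values had been seen. The members and lists were chosen with earlier results of these data known. Genes named from the lists are those past the threshold in limma with or without the slide block, up to the 6 largest changes per list, of which the text gives those that a result turns on, or the 2 largest where none passed. For Smarcd3, Smyd1 and Hopx the 3 nearest genes are named. The lists, written from general knowledge, covered BAF subunits, histone deacetylases, class IIa kinases and MEF2 factors, SMYD genes and partners, cardiac transcription factors, other chromatin regulators of heart development, contractile genes, proliferation genes and markers of endothelial, erythroid, definitive and yolk sac endoderm, neural ectoderm and paraxial mesoderm cells.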

Additional observations from a re-analysis of the deposited data

How the results depend on the processing

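The number of members called at an adjusted p of 0.05 was 0 under every alternative, also with 1 array left out while the slide was a block, except normexp together with the slide block, where Smyd1 passed (adjusted p 0.019). The number of all probes called was 27, and it was 50 with normexp background correction, 14 with quantile normalization, 1 without a filter, 13 with the ratios of the authors, 312 with the slide as a block, 144 with the replicate block, 45 with an intensity trend and between 0 and 2 with 1 array left out. The cause of these shifts was not tested. For samples of the same replicate number, the correlation of their deviations was 0.65, -0.28 and 0.49 for numbers 1, 2 and 3. The largest correlation between different numbers was 0.50. Samples of number 1 shared a slide, as did those of number 3, but not those of number 2. These values therefore cannot show whether samples were paired.

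The selection of the methods held 2 members, and 1 with normexp, with the percentile over probes well above background, with the ratios of the authors, with the slide as a block and with the replicate block. With 1 array left out it held between 0 and 2 members. It held 1 when any 1 of the 3 pre-heartbeat arrays was left out and 0 without post-heartbeat array 1 or 2. With the p of limma it held 3.

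Smarcd3, Smyd1, Hopx, Hdac5 and Smarcd1 kept their direction under all alternatives. With 1 array left out, the change was between 0.55 and 0.78 for Smarcd3, 0.45 and 0.73 for Smyd1, 0.36 and 0.54 for Hopx, 0.45 and 0.94 for Hdac5, and -0.50 and -0.30 for Smarcd1. The other members had small changes that turned. With the slide as a block Smarcd2 was at -0.147 and Smarca4 at -0.0245. With the block and normexp they were at -0.138 and -0.0242, and with the block and quantile normalization at -0.147 and -0.0344. Dpf3 was at -0.0045 with normexp, -0.0236 with quantile normalization, -0.0036 with the percentile over probes well above background and -0.0064 with the ratios of the authors. With 1 array left out, Smarcd2 was between -0.26 and 0.33, Smarca4 between -0.0711 and 0.30, Arid1a between -0.33 and 0.0319, Dpf3 between -0.16 and 0.20 and Apoa4 between -1.28 and 0.145, and the cause was not tested.

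The signal over background limits Hopx and Smarcd1, whose changes were 0.24 and -0.21 with normexp, and 0.31 and -0.16 with normexp and the slide block.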

Other observations

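Other chromatin regulators of heart development were also measured. Of the list, 33 genes were tested, 15 with a positive and 18 with a negative change, with a median of -0.07. None was called by limma with or without the slide block. At an unadjusted p under 0.05 in limma there was 1, beside 7.01% of all probes. The largest changes in size were those of Kdm6b, a demethylase of histone H3 lysine 27, at 0.61 ± 0.46 (SE), and of Cbx1, a heterochromatin protein, at -0.49 ± 0.28 (SE), both with overlapping groups. For Kdm6b, pre-heartbeat array 2 was at -3.53, while the other 5 arrays were between -2.10 and -1.40, and without it the change was 0.0564. That of Cbx1 was -0.27 without post-heartbeat array 1. Of 9 proliferation genes, 8 had a negative change, with a median of -0.08, no call (0 at an unadjusted p under 0.05) and a summed signal of 78.5 to 97.96 before and 78.5 to 83.7 after the first heartbeat. The largest of them in size were Bub1 at -0.20 and Pcna at -0.17.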
